A study of Mus musculus with 6 samples.

Results

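Acta1, Actn2, Casq1 and Mb are 4 genes of striated muscle that were read out in RNA from mouse bone. They were chosen on the 6-hour ratios, as the members of a list of skeletal muscle markers with the smallest p-values there, so their 6-hour values, their means over both times and their likeness to each other are given as a description. They account for 4 of 21446 rows of the value table and for 4 of 16678 features tested, each gene with 1 row, and all 4 had a value on all 6 arrays. The study asked which genes growth hormone (GH) changes in bone. Every animal, controls included, was a 4-week-old mouse of the strain C57BL/6J-Ghrhr<lit>, homozygous for the little allele (lit/lit), which disrupts the receptor for growth hormone-releasing hormone. GH-injected mice received 4 mg/kg once under the skin and control mice received PBS, and bone was taken 24 hours or 6 hours later. RNA of 2 animals was pooled, and each 2-colour array set 1 GH pool (Cy5) against 1 PBS pool (Cy3), with replicates 4 to 6 at 24 hours and replicates 1 to 3 at 6 hours.

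Skeletal muscle is built of sarcomeres, in which thin actin filaments, anchored at Z discs, slide past thick myosin filaments. Contraction starts when calcium leaves the sarcoplasmic reticulum, and it is fuelled by mitochondria and by the glycogen and phosphocreatine of the fibre. Muscles insert on bone through tendons and periosteum, and ground bone can carry attached muscle fibres. In a bulk RNA sample fewer cells of a type and less RNA per cell cannot be told apart, and a ratio between pools does not say which pool set it.

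Each value is a log2 ratio of GH over PBS, so 0 is equality and 1 is a doubling. No array had its dyes exchanged, and a dye effect of a gene therefore cannot be told apart from the effect of GH. The direction is taken from the dyes in the labels, is likely rather than stated, and holds for every signed value here. An array gave 18302 to 19961 values. The SD over an array's values was 0.47 on replicate 1, 0.73 on replicate 2, 0.69 on replicate 3, 0.77 on replicate 4, 0.68 on replicate 5 and 0.91 on replicate 6. Ratios carry no level, so the presence of bone or muscle RNA in a pool could not be checked against marker levels, and levels of genes could not be ranked. Of 14 markers of osteoblasts and osteocytes 5 had a ratio. None of the 5 was called at 24 hours, when 20.6% of all features were called.

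The 4 genes tended to move together from array to array. The sequence before their starts is shown so that shared elements can be read beside that pattern. The sequences are the 250 bases before the annotated start in RefSeq (GRCm38.p6), where all 4 genes matched, and all lie on the minus strand. Capitals mark the motifs searched on both strands: the E-box CANNTG, the TATA box TATAAA, the MEF2 site and the CArG box. The E-box is bound by basic helix-loop-helix factors, the myogenic ones among them, and the CArG box by serum response factor. Which factor binds a match was not tested.
Acta1, chr8:123894776-123895025: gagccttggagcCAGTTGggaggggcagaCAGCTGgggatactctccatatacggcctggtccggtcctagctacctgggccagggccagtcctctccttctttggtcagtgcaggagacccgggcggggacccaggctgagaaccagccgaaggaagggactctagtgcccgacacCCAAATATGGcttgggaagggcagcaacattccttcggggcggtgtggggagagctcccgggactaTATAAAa
Actn2, chr13:12340733-12340982: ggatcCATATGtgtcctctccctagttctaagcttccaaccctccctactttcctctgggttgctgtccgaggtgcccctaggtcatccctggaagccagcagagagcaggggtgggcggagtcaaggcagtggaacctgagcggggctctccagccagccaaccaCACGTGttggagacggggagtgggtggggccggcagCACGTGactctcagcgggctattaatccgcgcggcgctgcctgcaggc
Casq1, chr1:172219896-172220145: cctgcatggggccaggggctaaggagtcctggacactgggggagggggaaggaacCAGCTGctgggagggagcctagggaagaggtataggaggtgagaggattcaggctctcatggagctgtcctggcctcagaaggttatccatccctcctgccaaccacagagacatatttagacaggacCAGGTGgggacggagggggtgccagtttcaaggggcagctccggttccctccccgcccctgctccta
Mb, chr15:77022788-77023037: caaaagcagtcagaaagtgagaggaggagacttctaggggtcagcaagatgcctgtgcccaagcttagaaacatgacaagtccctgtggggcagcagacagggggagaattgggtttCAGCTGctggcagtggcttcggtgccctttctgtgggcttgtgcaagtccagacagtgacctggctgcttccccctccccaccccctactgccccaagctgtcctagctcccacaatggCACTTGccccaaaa
An E-box stood in all 4 windows, 2 in Acta1, 3 in Actn2, 2 in Casq1 and 2 in Mb, and 66.2% of 32536 distinct promoter windows of the same length held at least 1. The Acta1 window also held 1 CArG box, 73 bases before the start, against 1.48% of all windows. It held 1 TATA box, only 7 bases before the annotated start, against 12.3% of all windows. No window of the 4 held a MEF2 site as searched, which 2.89% of all windows held. Mb has 3 annotated starts, and the windows of its other starts held 3 and 2 E-boxes. The window with 3 overlaps the one shown and contains the same 2 E-boxes, CAGCTG and CACTTG. No motif matched here overlapped another.

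All 24 values of the 4 genes lay above 0, that is, on the GH side at both times. Among the 15131 features with a value on all 6 arrays, 2680, or 17.7%, lay above 0 on all 6. The 4 genes were chosen on their 6-hour values, so they cannot be measured against that share. At 24 hours all 4 means lay above 0, as did those of 50.2% of all features.

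Acta1 encodes skeletal muscle alpha-actin, the actin of the thin filament. Its log2 ratio was 0.69, 0.057 and 0.31 at 24 hours in replicates 4, 5 and 6, and 0.25, 0.59 and 1.79 at 6 hours in replicates 1, 2 and 3. The gene stood highest on replicate 3, where 99.2% of features were lower, and lowest on replicate 5, where it was close to equality. The 24-hour and 6-hour arrays overlapped.

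Actn2 encodes alpha-actinin-2, which crosslinks thin filaments at the Z disc. The log2 ratio of Actn2 was 1.27, 0.014 and 0.51 at 24 hours in replicates 4, 5 and 6, and 0.24, 0.70 and 1.57 at 6 hours in replicates 1, 2 and 3. Replicates 3 and 4 were high at their times, replicates 1 and 5 low, and the times overlapped. Actn2 was higher than 98.4% of features on replicate 3 and than 52.1% on replicate 5.

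Casq1 encodes calsequestrin-1, the calcium-binding protein of the sarcoplasmic reticulum in fast skeletal fibres. For Casq1 the log2 ratio was 1.04, 0.48 and 0.15 at 24 hours in replicates 4, 5 and 6, and 0.014, 0.98 and 1.42 at 6 hours in replicates 1, 2 and 3. Replicate 1 was close to equality, and replicates 2, 3 and 4 stood above the rest. On those arrays Casq1 was higher than 92.6%, 97.5% and 92.1% of features, and on replicate 1 than 53.0%.

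Mb encodes myoglobin, the oxygen-binding protein of oxidative skeletal and cardiac fibres. The ratio of Mb on the log2 scale was 1.66, 0.24 and 0.72 at 24 hours in replicates 4, 5 and 6, and 0.56, 0.98 and 0.75 at 6 hours in replicates 1, 2 and 3. It was the least scattered of the 4 at 6 hours, with an SD of 0.21 (n = 3), and the only one whose highest value came from a 24-hour array. Mb was higher than 97.8% of features on replicate 4 and than 72.6% on replicate 5, the lowest of its 6 ranks.

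**Figure D1:**
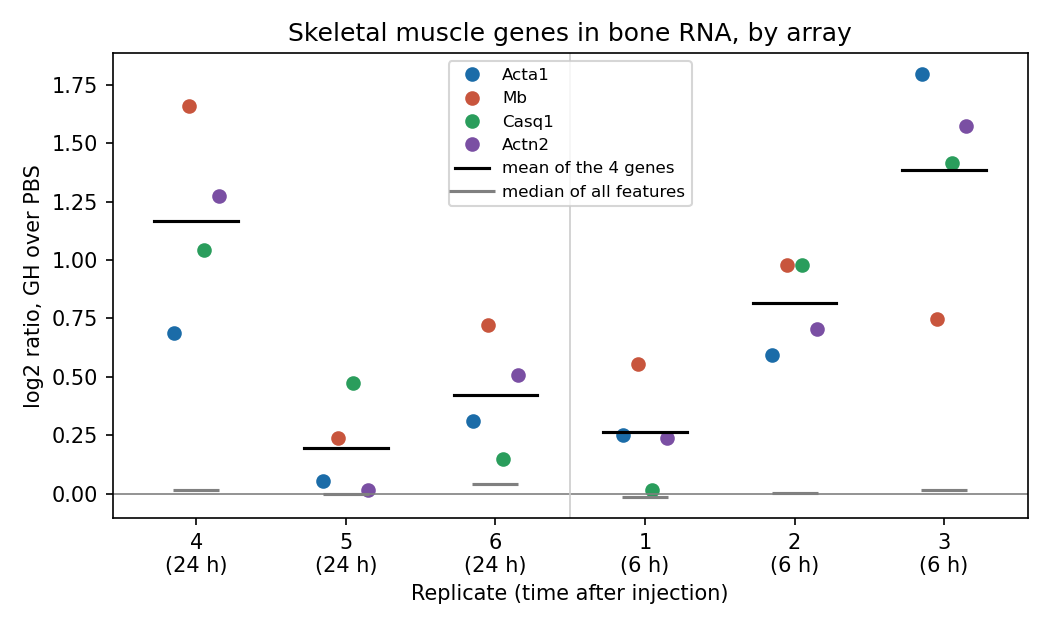
Log2 GH-over-PBS ratio (y axis) of Acta1, Mb, Casq1 and Actn2 on each of the 6 arrays (x axis, 24-hour replicates 4 to 6 left of 6-hour replicates 1 to 3). Points are the genes, the black bar is their mean and the grey bar the median of all features. The black bars range from 0.20 on replicate 5 to 1.38 on replicate 3.

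At 24 hours Mb averaged 0.87 ± 0.72 on the log2 scale, Actn2 0.60 ± 0.64, Casq1 0.56 ± 0.45 and Acta1 0.35 ± 0.32 (SD, n = 3 arrays each), or 1.83-, 1.51-, 1.47- and 1.28-fold. At 6 hours Acta1 averaged 0.88 ± 0.81, Actn2 0.84 ± 0.68, Casq1 0.80 ± 0.72 and Mb 0.76 ± 0.21 (SD, n = 3), or 1.84-, 1.79-, 1.75- and 1.69-fold. Neighbours in either order differed by less than their spread between arrays. The difference of 24 hours minus 6 hours was -0.53 for Acta1, -0.25 for Casq1, -0.24 for Actn2 and 0.11 for Mb. Only for Acta1 was it larger than an SD at either time, the 24-hour SD of 0.32, and it was under the 6-hour SD of 0.81.

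The 24-hour means were tested with limma, whose adjusted p-values run over all 16678 features, while the spread came from all 6 arrays. The 6-hour arrays on which the 4 genes were chosen enter that spread, so their 24-hour test is not independent of the choice. None of the 4 genes was called at an adjusted p of 0.05, against a background of 20.6% of features called in either direction and 12.0% called higher. That background moved with single arrays. All 6 arrays gave 3444 calls, and separate limma fits gave 4201 without replicate 1, 1984 without replicate 2, 1804 without replicate 3, 831 without replicate 4 and 2515 without replicate 5. Without replicate 6 limma called 0 features, with 4124 at an unadjusted p below 0.05, so none of the 24-hour calls given here was made in that fit. Mb came nearest, with a limma adjusted p of 0.0578 (standard error 0.26, unadjusted p 0.0137). The limma adjusted p was 0.195 for Casq1 (standard error 0.29), 0.198 for Actn2 (0.31) and 0.405 for Acta1 (0.30). The 24-hour log2 ratio moved by over 1.5 times when replicate 4 was left out, to 0.48 for Mb, 0.31 for Casq1, 0.26 for Actn2 and 0.18 for Acta1. Of 19 alternative settings Mb was called higher only without replicate 5 (log2 ratio 1.19, limma adjusted p 0.0373), and its adjusted p ranged from 0.0373 to 0.853. Replicates 4 and 6 carry another scan file prefix than the other 4 arrays. At 24 hours the mean of the 4 genes was 0.79 ± 0.53 on those arrays (SD, n = 2) and 0.20 on replicate 5, whose single value cannot show whether prefix and array differ.

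The mean of the 4 genes was 1.17 on replicate 4, 0.20 on replicate 5 and 0.42 on replicate 6 at 24 hours, and 0.27 on replicate 1, 0.81 on replicate 2 and 1.38 on replicate 3 at 6 hours. The same means are 2.24-, 1.15-, 1.34-, 1.20-, 1.76- and 2.61-fold in that order. Replicates 3 and 4 were highest at their times. Over all 6 arrays the mean was 0.71 ± 0.49, and without replicates 3 and 4 it was 0.42 ± 0.28 (SD, n = 6 and n = 4). Within an array the 4 genes differed from each other with an SD of 0.19 to 0.45, median 0.23, which is less than the SD of 0.49 between arrays. Scaling each array to the same median absolute deviation left means of 0.98, 0.24 and 0.30 on replicates 4 to 6 and of 0.42, 0.87 and 1.26 on replicates 1 to 3, with replicates 3 and 4 still highest.

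The 6 pairs of genes correlated over the 6 arrays with a mean Pearson r of 0.67, a description of genes that share each array's pools and hybridisation. Acta1 and Actn2 were most alike, at r = 0.90. Acta1 and Mb were least alike, at r = 0.28, and a rank correlation of 0.83 shows that their order over arrays was close. Without replicates 3 and 4 the r of Acta1 and Mb was 0.98 (n = 4), and that of Mb and Casq1 was 0.45. Leaving these arrays out lowered r from 0.84 to 0.47 for Casq1 and Actn2, and from 0.82 to 0.59 for Acta1 and Casq1. It raised r from 0.66 to 0.99 for Mb and Actn2, and from 0.90 to 0.96 for Acta1 and Actn2. Against the mean of the other 3 genes, r was 0.97 for Actn2, 0.84 for Casq1, 0.78 for Acta1 and 0.50 for Mb.

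Of 109 other muscle genes in 6 lists by role, 39 were measured. At 24 hours 31 of the 39 lay above 0, or 79.5%, against 50.2% of all features, and at 6 hours 34 of 39, or 87.2%, against 48.2%. Their median log2 ratio was 0.27 at 24 hours and 0.29 at 6 hours, beside medians of 0.0033 and -0.016 over all features. By array it was 0.59 on replicate 4, 0.098 on replicate 5 and 0.11 on replicate 6, and 0.00 on replicate 1, 0.33 on replicate 2 and 0.45 on replicate 3. The order of the arrays was close to that of the 4 genes: replicates 2, 3 and 4 were high and replicates 1, 5 and 6 low. At 24 hours limma called 2 of the 39 higher, or 5.13% against 12.0% of all features, and 2 lower, or 5.13% against 8.62%, at an adjusted p of 0.05. With replicate 4 or 6 left out, or with replicates 3 and 4 both out, no other muscle gene was called higher, and without replicate 2 or 3 the count was 1.

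**Figure D2:**
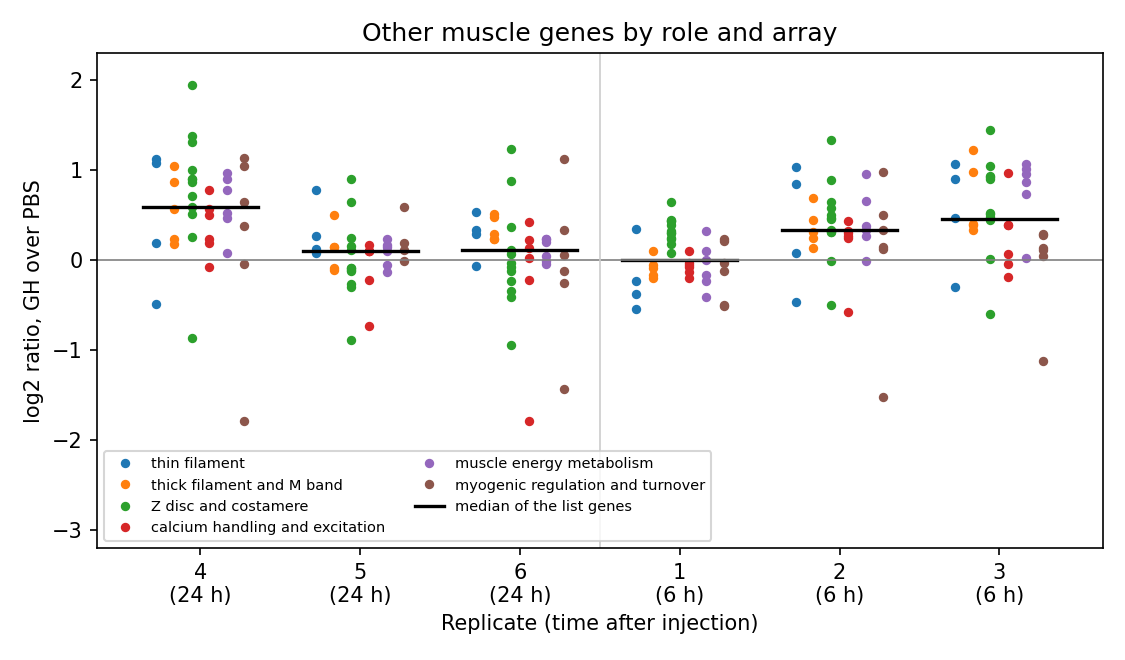
Log2 GH-over-PBS ratio (y axis) of the measured genes of 6 muscle role lists on each array (x axis, 24-hour replicates left). Points are genes coloured by role and bars the median of all 39, which ranged from 0.00 on replicate 1 to 0.59 on replicate 4.

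Among thin filament genes, 4 of 14 were measured and none was called. The background for this and the following role lists is 20.6% of all features called in either direction. Tnnc1, the troponin C of slow skeletal and cardiac fibres, had log2 ratios of 1.08, 0.78 and 0.54 at 24 hours in replicates 4 to 6, and -0.23, 1.03 and 1.06 at 6 hours in replicates 1 to 3. Its 24-hour mean was 0.80 ± 0.27 (standard error, limma adjusted p 0.0782). Tpm2, a tropomyosin that lines the actin filament, was above 0 on all 6 arrays, between 0.26 on replicate 5 and 1.12 on replicate 4. Tpm1, another tropomyosin, lay below 0 on 5 of 6 arrays, with a 24-hour mean of -0.16 (limma adjusted p 0.433). The sign of Tpm1 at 24 hours turned without replicate 4 and with the scan prefix as a covariate.

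Among thick filament and M band genes, all 5 measured of 19 lay above 0 at both times, and none was called. Mylpf, the regulatory light chain of fast skeletal myosin, had log2 ratios of 1.04, 0.15 and 0.24 at 24 hours, and 0.098, 0.69 and 1.22 at 6 hours. Its 24-hour mean was 0.48 ± 0.26 (standard error, limma adjusted p 0.211). Myl2, the slow and cardiac light chain, averaged 0.54 (limma adjusted p 0.122), and Myom3, a protein of the M band, averaged 0.41 (limma adjusted p 0.0796).

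Among Z disc and costamere genes, 9 of 12 measured (of 22) lay above 0 at 24 hours and 11 at 6 hours. Dmd, which encodes dystrophin, linking the cytoskeleton to the membrane, was called higher with GH at 24 hours. Dmd had log2 ratios of 1.38, 0.90 and 1.24 at 24 hours in replicates 4 to 6, and 0.44, 1.33 and 0.93 at 6 hours, high on all arrays but replicate 1. The 24-hour mean was 1.17 ± 0.19 (standard error, limma adjusted p 0.0156), a 2.25-fold ratio; its adjusted p ranged from 0.010 to 0.283 over 18 settings. Without replicate 4 the limma adjusted p was 0.0657 and without replicate 6 it was 0.0845. Cav3, the muscle caveolin, was called lower with GH at 24 hours. Cav3 had log2 ratios of -0.86, -0.89 and -0.94 at 24 hours, and 0.39, -0.49 and -0.60 at 6 hours, below 0 on 5 of 6 arrays. The 24-hour mean was -0.90 ± 0.20 (standard error, limma adjusted p 0.0295), and 6 settings took the call away.

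Among calcium handling and excitation genes, 4 of 6 measured (of 23) lay above 0 at 24 hours and 5 at 6 hours, and none was called. Casq2, the calsequestrin of the heart and slow fibres, had a lower ratio than Casq1 on all 6 arrays, with a 24-hour mean of -0.87 (limma adjusted p 0.0845). Cacna1s, the voltage sensor of the transverse tubule, averaged 0.34 (limma adjusted p 0.275), and Srl, sarcalumenin, a calcium-binding protein of the reticulum, averaged 0.32 (limma adjusted p 0.150).

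Among energy genes all 6 measured (of 16) lay above 0 at 24 hours and 5 at 6 hours, and none was called. Pygm, the glycogen phosphorylase of muscle, averaged 0.44 at 24 hours (limma adjusted p 0.175). Ak1, an adenylate kinase, averaged 0.33 (limma adjusted p 0.173). Eno3, the muscle enolase, averaged 0.29 (limma adjusted p 0.392), and its sign turned without replicate 4 and with the scan prefix as a covariate.

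Among myogenic regulators, 4 of 6 measured (of 15) lay above 0 at 24 hours and 5 at 6 hours. Mef2a, a transcription factor of muscle genes, was called higher with GH at 24 hours. Its log2 ratio was 0.64 and 1.12 on replicates 4 and 6, with no value on replicate 5, and -0.12, 0.33 and 0.29 at 6 hours. The mean was 0.88 ± 0.20 (standard error, n = 2 arrays, limma adjusted p 0.0365). Myog, myogenin, a factor of muscle differentiation, was called lower with GH at 24 hours. Its log2 ratio was -1.79 and -1.43 on replicates 4 and 6, with no value on replicate 5, and -0.49, -1.51 and -1.12 at 6 hours, below 0 on all 5 arrays with a value. The mean was -1.61 ± 0.27 (standard error, n = 2 arrays, limma adjusted p 0.0196). Neither gene had enough values to be tested without replicate 4 or 6. In 15 of the alternatives they were tested, and Mef2a lost its call in 6 of them. Myog lost its call in 1, the scan prefix as a covariate, where its mean was again -1.61 and the limma adjusted p 0.0857 (range over the 15 alternatives 0.0123 to 0.0857).

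Of the 37 other muscle genes with 6 values, 11 had a Pearson r above 0.9 with the mean of the 4 genes, or 29.7%, against 1.47% of features. The median r was 0.70 for these genes and 0.094 for all features. A high median r was not particular to skeletal muscle genes. It was 0.72 for the 7 smooth muscle genes measured and 0.51 for the 5 osteoblast and osteocyte genes. For the 8 neutrophil genes it was -0.68. An r above 0.9 was reached by 0 genes of these 3 lists. Outside them, 1 of 2 adipocyte genes, Pnpla2 (0.92), and 1 of 4 osteoclast genes, Acp5 (0.91), exceeded 0.9. Energy genes were closest, with a median r of 0.92. Mylpf had the highest r of all 15131 features, at 0.99.

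**Figure D3:**
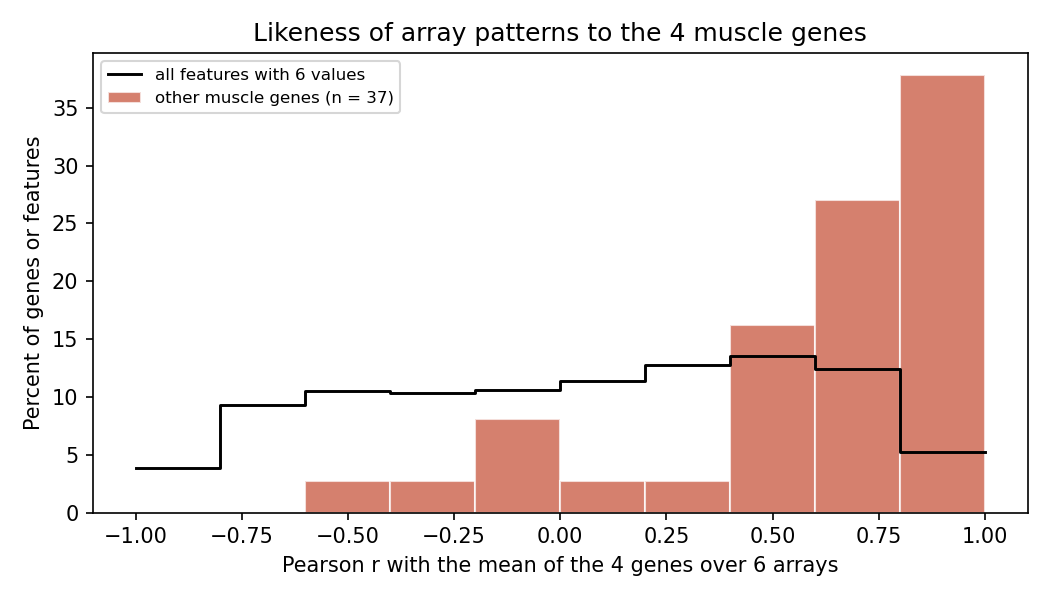
Percent of genes or features (y axis) by Pearson r with the mean of Acta1, Mb, Casq1 and Actn2 over 6 arrays (x axis). Bars are the 37 other muscle genes with 6 values, whose median r was 0.70, and the line is all 15131 features, whose median r was 0.094.

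The 10 named genes most like the mean of the 4 over the 6 arrays, out of 8138 candidates, were Mylpf, Fam131a, Ralgps2, Dag1, Lzts2, Ptpn23, Atp5k, Spns1, Eno3 and Slc9b2, with r of 0.98 to 0.99. Mylpf and Eno3 belong to the role lists. Dag1 encodes dystroglycan, the membrane partner of dystrophin, and Atp5k a subunit of mitochondrial ATP synthase. Dag1 had log2 ratios of 0.80, -0.015 and 0.21 at 24 hours and 0.23, 0.56 and 0.92 at 6 hours. Ptpn23, a phosphatase-family protein of endosomes, was above 0 on all arrays, between 0.34 on replicate 1 and 1.18 on replicate 3. The 5 genes with the lowest r were Sypl, Pnp, Rhpn2, Eif1a and Cdkn2d, at -0.98 to -0.99. Cdkn2d, an inhibitor of cyclin-dependent kinases, had -0.58, 0.15 and -0.074 at 24 hours and 0.24, -0.22 and -0.84 at 6 hours.

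Of 11 listed paralogs of the 4 genes, 8 were measured. At 24 hours 1 of them was called, or 12.5% against 20.6% of all features. Ngb, neuroglobin, was called lower with GH at 24 hours. Its log2 ratio was -1.74 and -2.12 on replicates 4 and 6 (none on replicate 5), and -0.67, -1.64 and -1.06 at 6 hours. Its 24-hour mean was -1.93 (n = 2 arrays, limma adjusted p 0.0139). Ngb had too few values for a test without replicate 4 or 6, and with the scan prefix as a covariate its call was lost (limma adjusted p 0.0603, range over 15 alternatives 0.00847 to 0.0603). The difference of Mb minus Ngb was 2.38 ± 0.86 (SD, n = 5), positive on 5 of 5 arrays. Casq1 minus Casq2 was 1.26 ± 0.62 (SD, n = 6), positive on 6 of 6. Actn2 minus Actn3, the alpha-actinin of fast fibres, was 0.30 ± 0.20 (SD, n = 6), again positive on 6 of 6. Actn2 minus Actn1, the non-muscle alpha-actinin, was 1.17 ± 1.15 (SD, n = 6), positive on 5 of 6.

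Acta1 minus Actg1, cytoplasmic gamma-actin, was 0.94 ± 0.72 (SD, n = 6) and positive on 6 of 6 arrays. The difference was 0.38 from Actc1, the cardiac actin, 0.33 from Acta2 and 0.29 from Actg2, the smooth muscle actins, each positive on 5 of 6. At 24 hours the log2 ratio was -0.41 for Actg1 (limma adjusted p 0.0947), 0.22 for Actc1 (0.459), 0.29 for Acta2 (0.209) and 0.013 for Actg2 (0.967). It was -0.65 for Actn1 (limma adjusted p 0.156) and 0.22 for Actn3 (0.630). The 24-hour sign turned for Actg2 under scaling by the median absolute deviation, for Actg2 and Actn3 without replicate 4, and for Acta2, Actg2 and Actn3 with the scan prefix as a covariate. Since the 4 genes were chosen on some of these arrays, the differences carry no test. The actins have near-identical coding sequences, and signal shared between their probes was not tested.

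**Figure D4:**
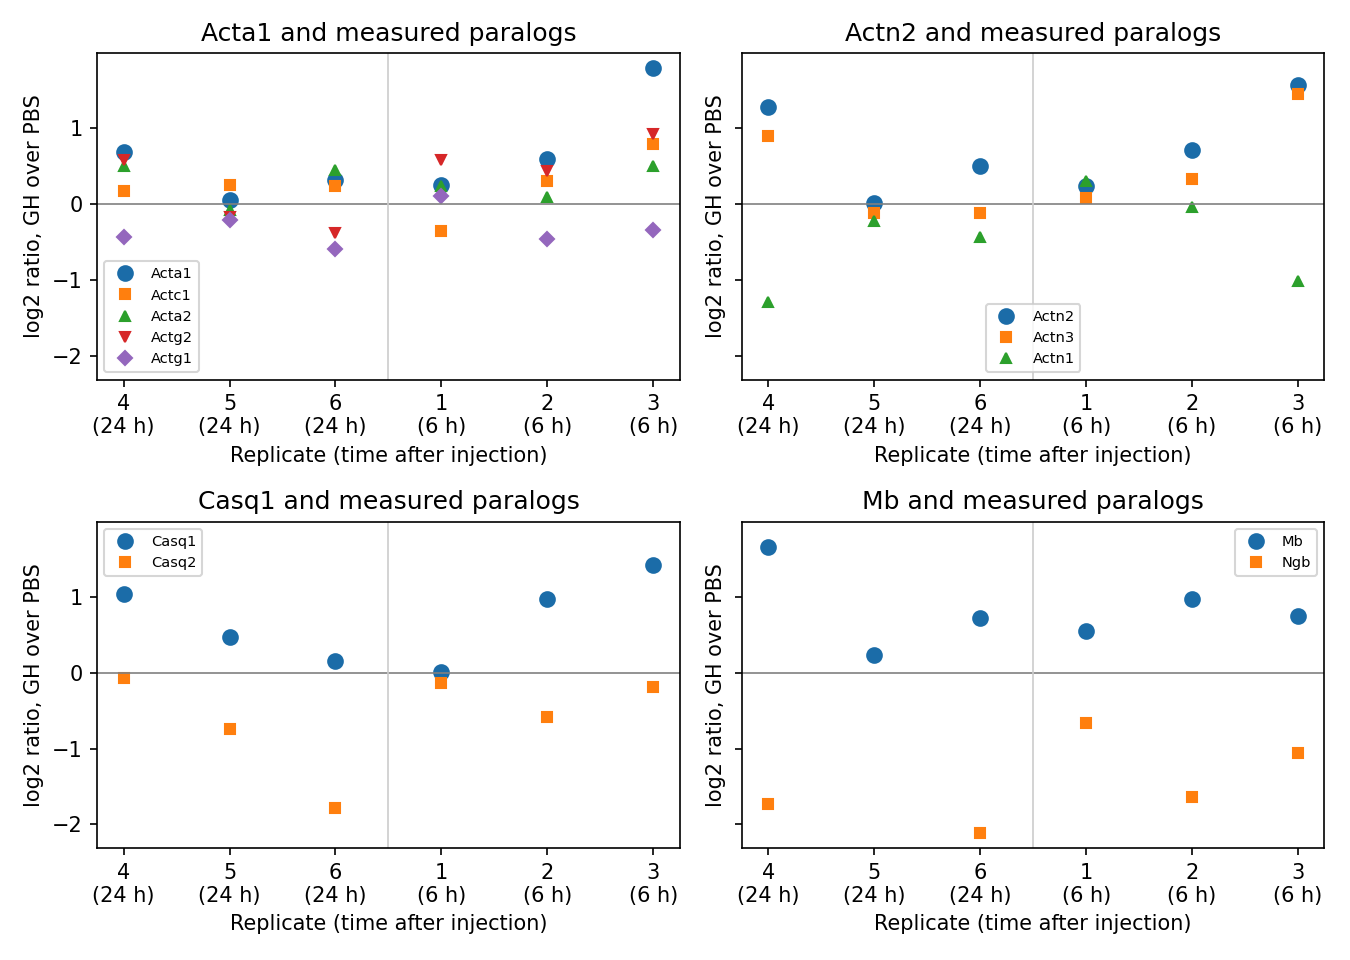
Log2 GH-over-PBS ratio (y axis) of Acta1, Actn2, Casq1 and Mb with their measured paralogs on each array (x axis, 24-hour replicates left). Casq2 and Ngb lie below Casq1 and Mb on every array with both values, and Acta1 lies above Actg1 on all 6.

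Lists of other cells that bone can hold were read on the same arrays, and their part in the result was not tested. Of 16 neutrophil genes 8 were measured, and their median log2 ratio was -1.64, -0.64 and -0.77 at 24 hours in replicates 4 to 6, and 0.086, -0.53 and -1.29 at 6 hours in replicates 1 to 3. The median was lowest on replicates 3 and 4, where the mean of the 4 muscle genes was highest. The relation rests on these arrays: Pearson r was -0.78 over 6 arrays and -0.23 without replicates 3 and 4 (n = 4). At 24 hours limma called 5 of these 8 genes lower and 0 higher at an adjusted p of 0.05, beside 8.62% of all features called lower, among them Mpo, myeloperoxidase (-0.89, limma adjusted p 0.0121), and Ms4a3 (-1.30, limma adjusted p 0.0283). The 8 cardiac genes measured of 10 had medians between -0.15 and 0.091 by array, and the 7 smooth muscle genes of 10 had medians between -0.25 and 0.23. None of either list was called at 24 hours, and none of the 2 measured genes of the adipocyte and of the nerve lists. Of all features 20.6% were called in either direction and 12.0% higher. Of the tendon list, 1 of 2 measured genes was called higher, Fmod, a matrix proteoglycan (1.00, limma adjusted p 0.0297). The other, Tnc, lay below 0 on 5 of 6 arrays, with a 24-hour mean of -0.63 (limma adjusted p 0.0805).

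Of the skin keratinocyte list, 3 of 8 genes were measured, and all 3 lay above 0 on average at both times. Their median by array was 0.34, 0.61 and 0.98 at 24 hours in replicates 4 to 6, and 0.41, 0.90 and 0.69 at 6 hours in replicates 1 to 3. The 3 genes had a median r of 0.46 with the mean of the 4 muscle genes over the 6 arrays, and 2 of the 3 had a positive r. At 24 hours 2 of the 3 were called higher: Ivl, involucrin of the cornified envelope (0.93, limma adjusted p 0.0191), and Krt14, a keratin of basal cells (0.68, limma adjusted p 0.0291). Of all features 12.0% were called higher and 8.62% lower, the background for each count of called genes in this paragraph. Of 6 measured B lineage genes 1 was called higher, Blnk, an adaptor of B cell receptor signalling (0.98, limma adjusted p 0.0142). The median of the 6 was 0.027 at 24 hours, with 3 of them above 0, beside 50.2% of all features. Of 4 measured osteoclast genes Calcr, the calcitonin receptor, was called higher (1.17, limma adjusted p 0.0264) and the gelatinase Mmp9 lower (-0.44, limma adjusted p 0.0480).

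**Figure D5:**
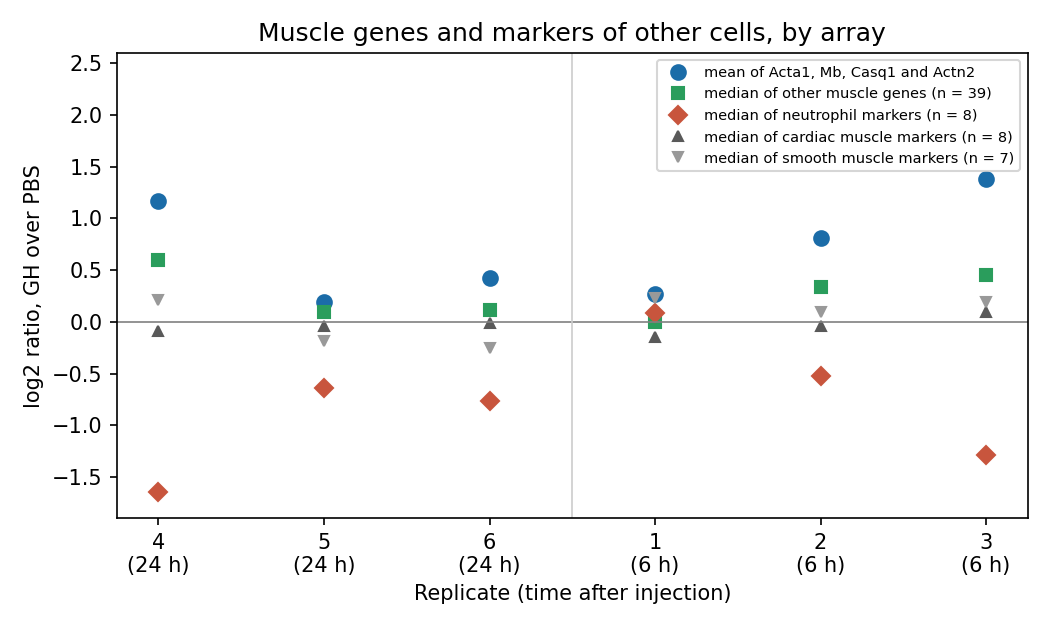
Log2 GH-over-PBS ratio (y axis) by array (x axis, 24-hour replicates left) of the mean of Acta1, Mb, Casq1 and Actn2, and the median of other muscle genes and of neutrophil, cardiac and smooth muscle markers. Replicates 3 and 4 have the highest means of the 4 genes, 1.38 and 1.17, and the lowest neutrophil medians, -1.29 and -1.64. Without replicates 3 and 4 the Pearson r of these means with the neutrophil medians is -0.23 (n = 4), against -0.78 over 6 arrays.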

How the data were processed

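Log2 ratios of Cy5 over Cy3 were used as deposited by the authors, 1 per row and array. Per the labels, bone RNA was amplified and dye-labelled, and GH pools carried Cy5. No source used here gives the software or the normalization. Every value equals the log2 of a ratio with 2 decimals. The 4 genes and the lists were chosen with earlier results of these data known. Rows were named from the platform's annotation: 11813 had 1 symbol, 559 several and 9074 none. Rows of 1 symbol were averaged, and features needed at least 2 values at each time. limma 3.58.1 in R 4.3.3 fitted 1 mean per time on all 6 arrays, two-sided, with Benjamini-Hochberg adjustment over all features, and was tested on simulated data. Groups were taken from the labels. Named genes are the 4 members, their paralogs, up to 6 called genes of each role list or, with fewer than 2 called, those with the largest mean over both times until 3 were named, the 10 most and 5 least alike genes, and up to 2 called genes of other cell lists. Alternatives were scaling, quantile normalization, array weights, complete rows, the 24-hour arrays alone, scan prefix and each replicate left out.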

Additional observations from a re-analysis of the deposited data

Results flagged for a closer look

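Mmp9, a gelatinase of neutrophils and osteoclasts that stood in both marker lists, gave ratios on opposite sides of 0 at the 2 times. Its log2 ratio was -0.38, -0.27 and -0.66 at 24 hours in replicates 4 to 6, and 0.06, 0.11 and 0.01 at 6 hours in replicates 1 to 3. The difference of 24 hours minus 6 hours was -0.50, with a limma adjusted p of 0.982 for that difference. The 4 muscle genes lay above 0 at both times.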

How the results depend on the processing

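No paired analysis was possible because the 24-hour and 6-hour arrays share no replicate number. Acta1, Casq1 and Actn2 kept their direction and stayed short of the threshold in all 19 alternatives. With replicates left out in turn, the 24-hour log2 ratio ranged from 0.18 to 0.50 for Acta1, 0.31 to 0.76 for Casq1, 0.26 to 0.89 for Actn2 and 0.48 to 1.19 for Mb, which was called without replicate 5 alone (1.19). With the prefix as a covariate it was 0.057 for Acta1, 0.48 for Casq1, 0.014 for Actn2 and 0.24 for Mb. Features called at 24 hours were 3444; they were 2277 with the 24-hour arrays fitted alone, 32 with the scan prefix as a covariate, 0 to 4201 with replicates left out in turn (0 without replicate 6, where limma gave 4124 features an unadjusted p below 0.05) and 0 without replicates 3 and 4 together, an alternative chosen after seeing the data. Other muscle genes called higher were 2; they were 1 after scaling to the median absolute deviation, after quantile normalization and with values on all 6 arrays, 0 with the scan prefix, 0 to 3 with replicates left out and 0 without replicates 3 and 4. The 24-hour log2 ratio reversed for Tpm1 (prefix 0.076; replicates left out -0.28 to 0.0047), Eno3 (prefix -0.059; -0.0082 to 0.47), Acta2 (prefix -0.074), Actg2 (scaling -0.0069; prefix -0.17; -0.27 to 0.21) and Actn3 (prefix -0.12; -0.12 to 0.39). With the prefix as a covariate, replicate 5 alone sets the 24-hour mean of a gene with a value there; Myog, Mef2a and Ngb have none and kept the mean of replicates 4 and 6. Other causes were not tested. The number of arrays limits the precision, and signal over background is not known from ratios.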
